A study of Sus scrofa and Bos taurus with 31 samples.

Results

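The 4 genes examined here are ZIC1, ZIC4, ZIC2 and ZIC5, which lie in the pig genome as 2 pairs, ZIC1 with ZIC4 on chromosome 13 and ZIC2 with ZIC5 on chromosome 11. They were taken by name from the 20674 protein-coding genes of the NCBI RefSeq annotation of the pig assembly Sscrofa11.1, and all 4 were found. They were chosen by a measured value, the low share of open chromatin at ZIC1 in cerebellum in these same libraries, so every comparison of cerebellum with the other tissues below is a description without a test. Open chromatin was mapped by ATAC-seq, an assay that reads out where a transposase can reach the DNA. The tissues were cerebellum, cerebral cortex and hypothalamus from the brain, and adipose, spleen, skeletal muscle, lung and liver from outside it. The same 2 pigs, P348 and P350, gave all 8 tissues, which made 16 libraries. Both animals were untreated castrated male Yorkshire littermates, 6 months of age and sexually mature. The nuclei were isolated from whole tissue before freezing, so each library mixes all cell types of its tissue, and fewer open cells cannot be told apart from less open chromatin per cell.

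ZIC proteins are zinc finger transcription factors related to the GLI and GLIS families. In vertebrates their genes act in the dorsal neural tube and early brain, and in the cerebellum they are known from granule neurons and the progenitors of these cells. Loss of ZIC1 together with ZIC4 is known from human cerebellar malformation, and mutation of ZIC2 from a failure of the forebrain to divide. In both pairs the genes point away from each other, so that both starts lie in the space between them.

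For each library the measurements were the peaks listed around a gene, the bases these peaks cover, and those bases as a share of the whole list (peak bases per Mb of all peak bases in that library). A peak is a stretch of DNA with more reads than its surroundings, and its fold is the mean height over the background estimated there. The share was used because the cerebellum lists were the longest, with 217308 peaks in P348 and 207917 in P350. They covered 151.7 Mb on average against 91.2 ± 21.5 Mb in the other tissues (SD, n = 7 tissues), a ratio of 1.66, and the shortest list was that of the skeletal muscle of P350 with 99960 peaks. The depth of the libraries was not used here. Of 16 tissue marker genes, all 16 had their own tissue among the upper 4 by share and 10 had it first, and for 4 of them both libraries of the tissue lay above all the others. Among the cerebellum markers, CBLN1, a secreted organizer of granule cell synapses, and GABRA6, a GABA receptor subunit of granule neurons, both ranked first in cerebellum. Neither was among those 4, which were markers of liver, skeletal muscle and spleen.

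ZIC1 (GeneID 100153570) runs on the plus strand at chr13:87740769-87750258, and ZIC4 (GeneID 100519623) on the minus strand at chr13:87725642-87740724. Only 44 bases separate their first transcribed bases, so both genes use what is here called the shared start, and no window of 2 kb can tell them apart. ZIC2 (GeneID 100622978) runs on the plus strand at chr11:68840802-68845441, and ZIC5 (GeneID 100153729) on the minus strand at chr11:68830472 down to chr11:68821733. Their starts lie 10329 bases apart. The sequences below are shown because the peaks at the starts of the 4 genes are described next. They were read from the Sscrofa11.1 genome, and capitals mark CpG dinucleotides. The first is the stretch between the ZIC4 and ZIC1 starts (chr13:87740725-87740768, plus strand), and the others are the 250 bases upstream of ZIC2 (chr11:68840552-68840801, plus strand) and of ZIC5 (chr11:68830473-68830722, minus strand).
between the ZIC4 and ZIC1 starts: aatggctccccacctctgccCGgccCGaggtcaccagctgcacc
upstream of ZIC2: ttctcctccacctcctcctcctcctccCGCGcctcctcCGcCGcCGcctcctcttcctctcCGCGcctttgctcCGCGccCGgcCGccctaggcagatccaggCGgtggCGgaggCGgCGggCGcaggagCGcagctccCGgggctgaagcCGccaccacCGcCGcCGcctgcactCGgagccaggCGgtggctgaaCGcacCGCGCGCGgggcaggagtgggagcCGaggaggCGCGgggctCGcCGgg
upstream of ZIC5: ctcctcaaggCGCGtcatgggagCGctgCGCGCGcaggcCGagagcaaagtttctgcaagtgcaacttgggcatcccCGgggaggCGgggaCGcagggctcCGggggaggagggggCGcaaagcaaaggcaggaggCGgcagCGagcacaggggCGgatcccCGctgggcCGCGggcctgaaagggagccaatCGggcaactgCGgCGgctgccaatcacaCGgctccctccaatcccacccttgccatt

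The stretch between the starts of ZIC4 and ZIC1, only 44 bases long, held 2 CpG dinucleotides at a GC content of 70.5%. The windows of 250 bases upstream of ZIC1 and of ZIC4, not shown, held 11 each. The window upstream of ZIC2 held 34 at 77.6%, more CpG than 92.3% of 20664 windows of that length upstream of protein-coding genes. The window upstream of ZIC5 held 22 at 69.2%, more than 75.3% of those windows, for which the median was 11. None of these upstream windows held GACCACCCA, the site bound by GLI proteins, or CAGCAGG, a core letter string of ZIC sites, on either strand. These letters were found in 0.203% and 8.05% of all upstream windows.

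At the shared start of ZIC1 and ZIC4, cerebellum had the strongest peaks of all 16 libraries. The peak over the start had a fold of 3.47 in P348, where it was 1974 bases wide, and of 3.96 in P350, where it was 1331 bases wide. These folds were above 84.6% and 87.1% of the peaks of the 2 lists. No other library had a peak within 2 kb with a fold above 2.88.

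In the other tissues the strongest peak within 2 kb of the shared start had a lower fold, or none was listed. Adipose had folds of 2.20 and 2.48 (P348 and P350), hypothalamus 2.49 and 2.88, and lung 2.55 and 2.45. The 2.88 was that of a separate peak beside the start, and the peak over the start in that library had 2.80. Cerebral cortex had a peak in P350 (2.73) and none in P348, and spleen had one in P348 (2.56) and none in P350. Neither library of liver or of skeletal muscle listed a peak there. A peak within 2 kb was thus listed in 10 of 16 libraries, and it covered the first base of ZIC1 in 7.

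The bases covered within 2 kb of the shared start were 1974 and 1331 in cerebellum (mean 1652.5), against a mean of 514 ± 511 in the other tissues (SD, n = 7 tissues). This was a ratio of 3.22 in raw bases, and 2.08 after division by the length of the list. Cerebellum was first of 8 tissues by mean bases, but its lower library was exceeded by adipose of P348 (1665), lung of P350 (1425) and hypothalamus of P350 (1352). After division by the length of the list, the means of adipose and hypothalamus lay above that of cerebellum. The mean of the other tissues includes liver and skeletal muscle, which had no peak there. At a q-value of 0.0001 or less, the peak was listed in both cerebellum libraries and in 0 of the 14 others. Among all 20674 genes, 39 starts (0.189%) had that pattern, with ZIC1 and ZIC4 both among them. The map of the locus shows this peak darker in the cerebellum rows than in the others.

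**Figure D1:**
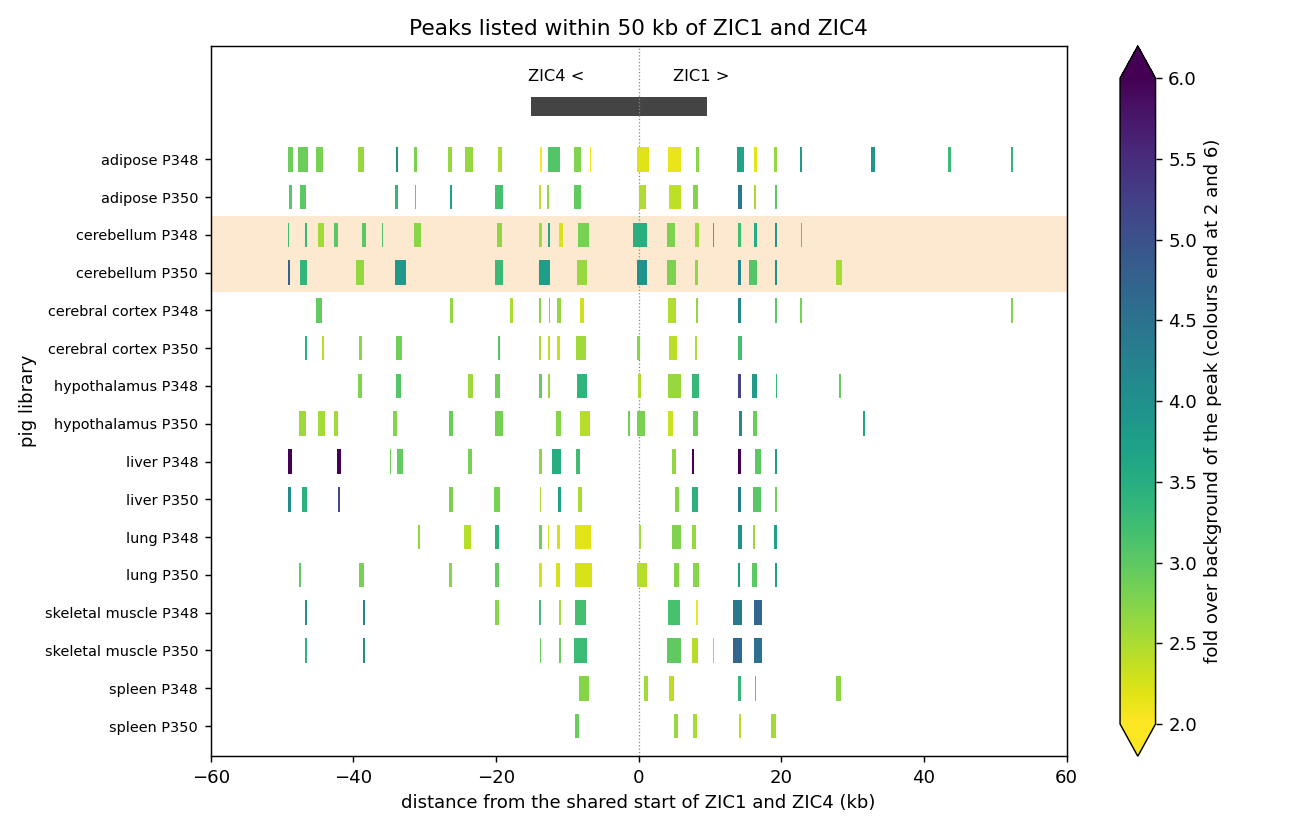
Peaks listed in each of the 16 pig libraries (rows) within 50 kb of ZIC1 and ZIC4, by distance in kb from their shared start, with the fold over background of each peak as colour and the cerebellum rows shaded. At the start the cerebellum peaks had folds of 3.47 and 3.96, and the 6 libraries without a peak within 2 kb were both of liver, both of skeletal muscle, cerebral cortex of P348 and spleen of P350.

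The starts of ZIC2 and ZIC5 were open more evenly. ZIC2 had a peak within 2 kb in 16 of 16 libraries, which was the case for 54.7% of all genes, and ZIC5 in 15 of 16, without adipose of P348. At ZIC2 the cerebellum folds of 2.62 and 2.85 lay inside the range of the 16 libraries, 2.47 to 3.59 with a median of 2.83, and in neither cerebellum library did the peak cover the first base of the gene. The highest fold there, 3.59, was that of a peak in the skeletal muscle of P350 that covered only 284 bases of the window.

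At ZIC5 the cerebellum folds were 3.43 and 3.20. The next were 3.42 in the cerebral cortex of P348 and 3.29 in the liver of P350, so cerebellum did not stand apart from the other tissues. Over both starts together, cerebellum covered 3409 bases and the other tissues 3169 ± 1094 (SD, n = 7 tissues), a ratio of 1.08 in raw bases and of 0.626 by share.

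**Figure D2:**
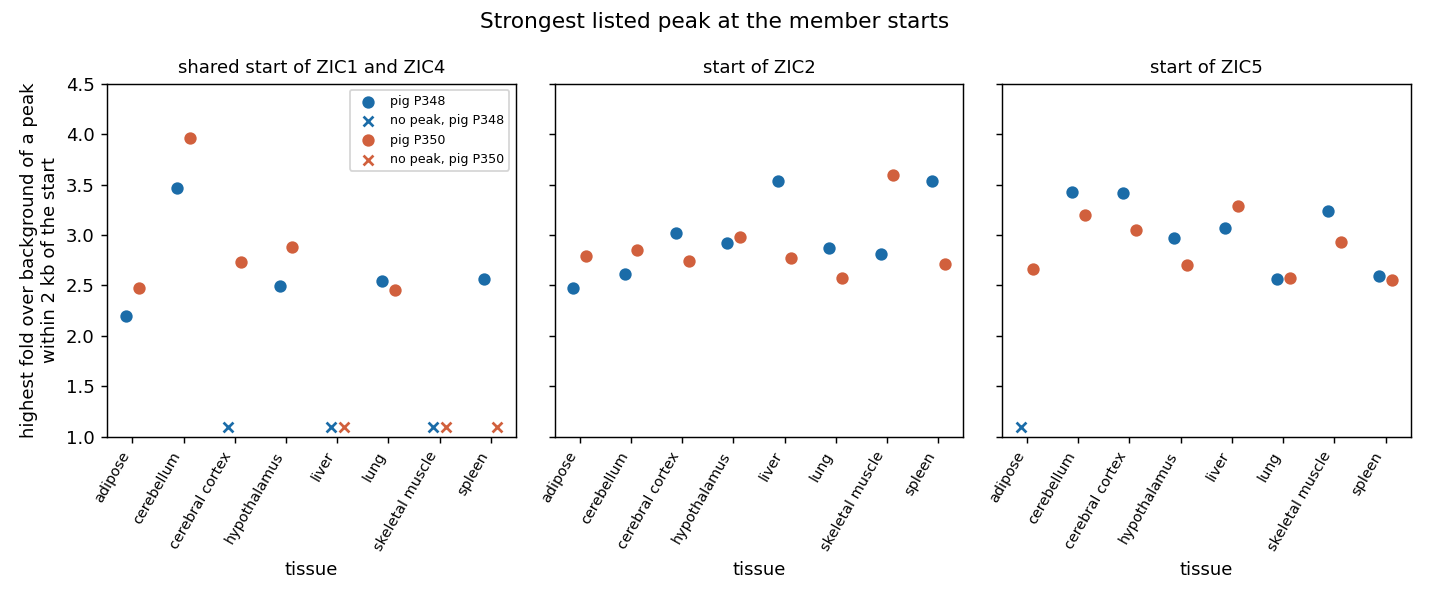
Highest fold over background of a peak within 2 kb of the start, by tissue and pig, for the shared start of ZIC1 and ZIC4, for ZIC2 and for ZIC5, with crosses (placed at the foot of the panel, not at a value) for libraries without a peak. Cerebellum lay above all other libraries at the shared start (3.47 and 3.96), not at ZIC2 (2.62 and 2.85), and at ZIC5 its values (3.43 and 3.20) overlapped those of cerebral cortex.

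Counted over a whole pair with 10 kb either side, cerebellum ranked high in raw bases and low by share. The pair was counted as 1 locus because the windows of its genes overlap. At ZIC1 and ZIC4, peaks covered 8408 and 9159 bases in cerebellum, a mean of 8784 ± 531 (SD, n = 2 pigs), and 6347 ± 2114 in the other tissues (SD, n = 7 tissues). Cerebellum was first of 8 tissues, barely ahead of adipose with a mean of 8764.5, whose libraries at 10320 and 7209 enclosed it.

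By share cerebellum was rank 6 at the same locus. It had 54.0 in P348 and 62.0 in P350, in peak bases per Mb, a mean of 58.0 ± 5.63 (SD, n = 2 pigs) against 70.9 ± 21.02 in the other tissues (SD, n = 7 tissues). The ratio of cerebellum to the others was thus 1.38 in raw bases and 0.818 by share. Because the cerebellum lists were longer, division by their length lowers this kind of ratio for any gene.

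The order of the shares at ZIC1 and ZIC4 did not follow brain against other organs. Hypothalamus was highest with 120.8 and 76.4 (P348 and P350), followed by skeletal muscle with 74.1 and 103.5 and by adipose with 82.5 and 87.8. Liver had 80.2 and 60.7, and lung 67.5 and 56.7. Cerebral cortex with 45.6 and 48.7 and spleen with 50.9 and 37.2 were lowest. No step between neighbours in this order was larger than the pooled SD between the pigs of a tissue, 15.03, and the ranges of most neighbours overlapped. The exceptions without overlap were adipose above liver and cerebellum above cerebral cortex.

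At ZIC2 and ZIC5, cerebellum was second by raw bases and again rank 6 by share. Peaks covered 6215 bases in P348 and 9936 in P350, a mean of 8076 ± 2631 (SD, n = 2 pigs), below lung with 6746 and 12994 and above the other tissues. The share was 39.9 and 67.2, a mean of 53.6 ± 19.3 (SD, n = 2 pigs) against 65.6 ± 22.4 (SD, n = 7 tissues). The ratios were 1.34 in raw bases and 0.817 by share, close to those of the first pair. By the number of peaks cerebellum was first at this locus, with 7 and 8 peaks against a mean of 5.07 ± 0.886 in the other tissues (SD, n = 7 tissues).

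Hypothalamus had the highest share at ZIC2 and ZIC5 too, with 110.2 and 87.6 (P348 and P350). Liver followed with 67.9 and 97.2, lung with 58.1 and 89.6, and cerebral cortex with 65.5 and 68.6. Adipose had 33.3 and 85.4, spleen 28.1 and 60.8, and skeletal muscle 59.3 and 7.03. The value of 7.03 was the lowest of any library at either locus and came from 2 peaks of 511 bases in all. This value enters every mean of the other tissues given for ZIC2 and ZIC5. The tests at this pair are also given without skeletal muscle, but the ratios of cerebellum to the other tissues are not. The same library had 8 peaks and 7517 bases at ZIC1 and ZIC4. No neighbours in this order differed by more than the pooled SD between pigs, 24.5.

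**Figure D3:**
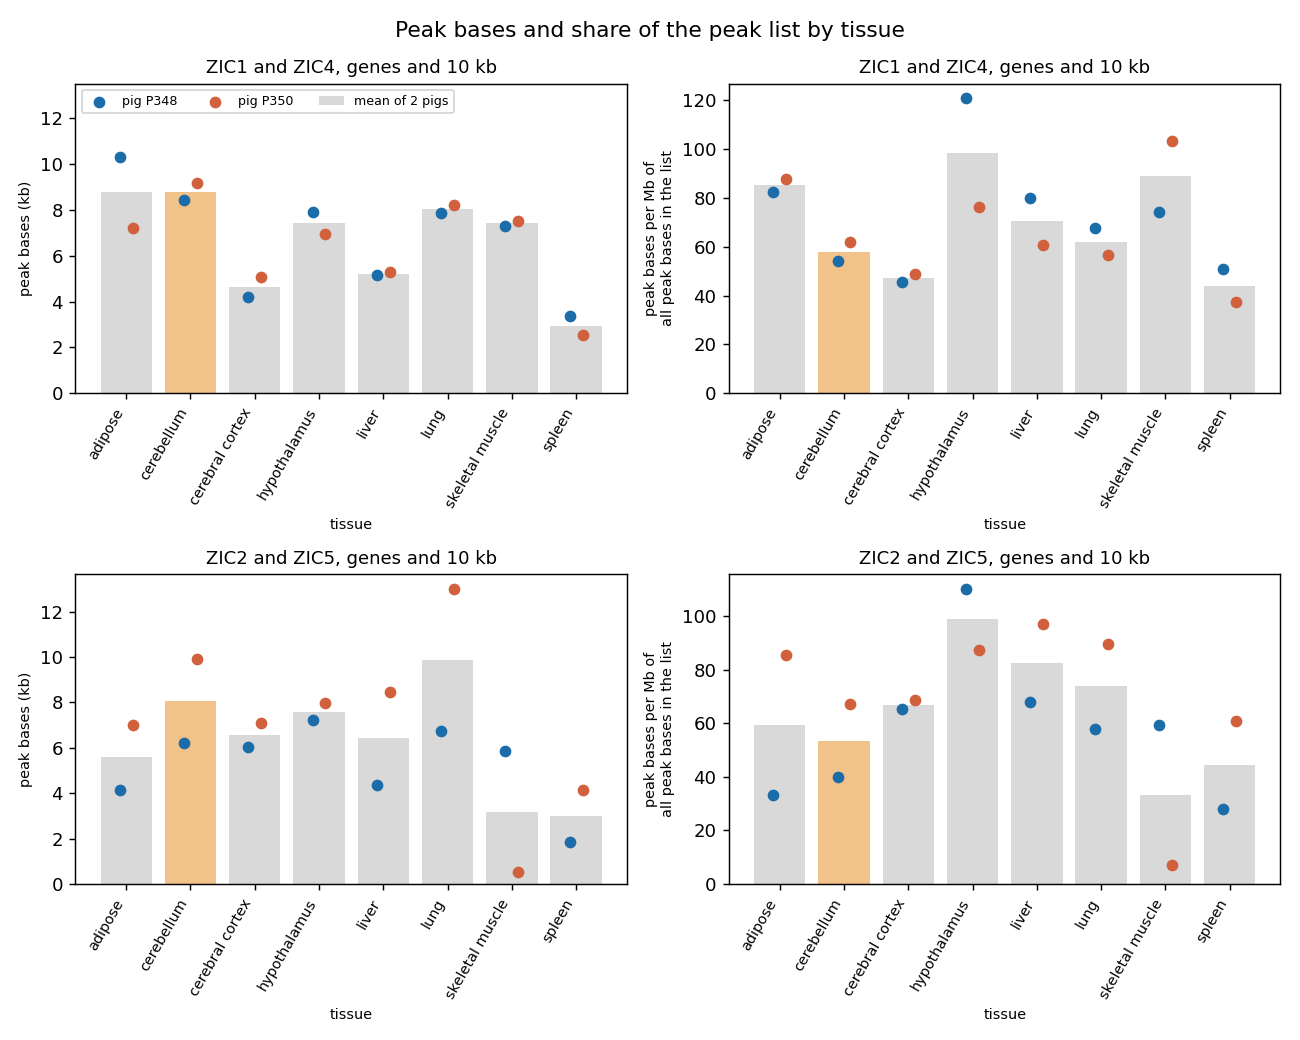
Peak bases in kb (left) and peak bases per Mb of all peak bases of the library (right) by tissue for the 2 pairs of genes with 10 kb either side, with points for the 2 pigs and bars for their mean (cerebellum in orange). Cerebellum was rank 1 and rank 2 by raw bases and rank 6 by share at both pairs.

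Each gene was also counted on its own, with 10 kb either side. Cerebellum ranked second in raw bases at all 4 genes, with ratios to the other tissues of 1.31 for ZIC1, 1.44 for ZIC4, 1.36 for ZIC2 and 1.36 for ZIC5. By share the ratios were 0.766 for ZIC1 (rank 7), 0.862 for ZIC4 (rank 5), 0.842 for ZIC2 (rank 6) and 0.814 for ZIC5 (rank 5). The 2 cerebellum libraries were close to each other at ZIC1, with shares of 41.1 and 42.8, and 11 of the 14 other libraries lay above both.

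All genes with a peak gave the background for these ratios. Over 19906 genes with a peak in the window, the cerebellum mean by share was below that of the other tissues for 81.1%, and it was below for 4 of the 4 ZIC genes. In raw bases the cerebellum mean was above for 32.6% of genes and for 4 of 4 ZIC genes. The windows of the genes of a pair overlap, so the 4 ZIC genes are not separate cases in these counts and medians. The median gene had a ratio of 0.770 in raw bases and of 0.455 by share, so the ZIC genes, with medians of 1.36 and 0.828, lay above it on both scales. Both cerebellum libraries were above all 14 others in raw bases for 10.3% of genes and by share for 4.92%, and below all 14 by share for 33.3% and in raw bases for 4.96%. None of the 4 ZIC genes was in any of these groups.

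With 50 kb either side, cerebellum was second in raw bases at ZIC1 and ZIC4. It covered 13039 ± 1172 bases (SD, n = 2 pigs) against 8148 ± 3099 in the other tissues (SD, n = 7 tissues), a ratio of 1.60, and its share of 86.1 was near theirs of 90.3. At ZIC2 and ZIC5 the ratio was 1.26 in raw bases and 0.775 by share. Split by distance, the raw ratio at ZIC1 and ZIC4 was 3.22 within 2 kb of the start, 1.22 in the rest of the genes with 10 kb, and 2.36 between 10 and 50 kb. The ratios by share were 2.08, 0.718 and 1.45. In the outermost part adipose covered more than cerebellum, 4478 against 4255 bases.

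The place of cerebellum changed when only the stronger peaks were kept. In the whole lists 16.3% of the cerebellum peaks of P348 and 8.83% of those of P350 had a listed q-value above 0.05, against 1.54% to 14.8% in the other libraries. When every list was shortened to its best 99960 peaks, the share at ZIC1 and ZIC4 was 93.5 and 130.2 in cerebellum against 63.4 ± 29.9 in the other tissues (SD, n = 7 tissues). Cerebellum was then first of 8 tissues, with a ratio of 1.77 in place of 0.818, and 2 of the 14 other libraries lay above the lower cerebellum value.

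With peaks of a q-value of 0.0001 or less the difference at ZIC1 and ZIC4 was larger. The share was 159.4 and 224.1 in cerebellum against 49.7 ± 46.1 in the other tissues (SD, n = 7 tissues), a ratio of 3.86. Only adipose of P348, at 173.6, lay above the lower cerebellum value, and 3 libraries had no such peak. For ZIC1 alone both cerebellum libraries, at 142.5 and 165.3, lay above all 14 others, the highest of which was skeletal muscle of P350 at 123.5. By share this placed 1 of the 4 ZIC genes in a group that held 2.54% of 18864 genes. In raw bases ZIC1 did not lie above all 14 others at this limit, where its ratio was 2.37. The cerebellum lists covered fewer bases than the others there (ratio 0.661), so division by their length raises such a ratio. In lists of equal length and at a q-value of 0.01 or less the groups by share held 4.39% and 4.21% of genes and 0 of the 4. The opposite groups by share, with both cerebellum libraries below all others, held 21.2%, 26.5% and, at 0.0001, 4.71% of genes and also 0 of the 4. In raw bases at 0.01, both cerebellum libraries lay above all 14 others at ZIC4 (ratio 2.75), which held for 6.74% of genes.

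The cerebellum libraries were further apart at ZIC2 and ZIC5. In lists of equal length their share was 31.4 and 123.6 in cerebellum, on both sides of the mean of 80.9 ± 34.1 in the other tissues (SD, n = 7 tissues), with a ratio of 0.958. Only at a q-value of 0.0001 or less did the ratio exceed 1, at 3.55, with values of 110.4 and 255.6 against 51.6 ± 35.1 (SD, n = 7 tissues). The gap between the 2 cerebellum libraries was larger than that mean. The ratio of the whole list in cerebellum to the others was 1.66 with all peaks, 1.05 with equal length and 0.661 at 0.0001, where the median gene had a ratio by share of 0.644.

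**Figure D4:**
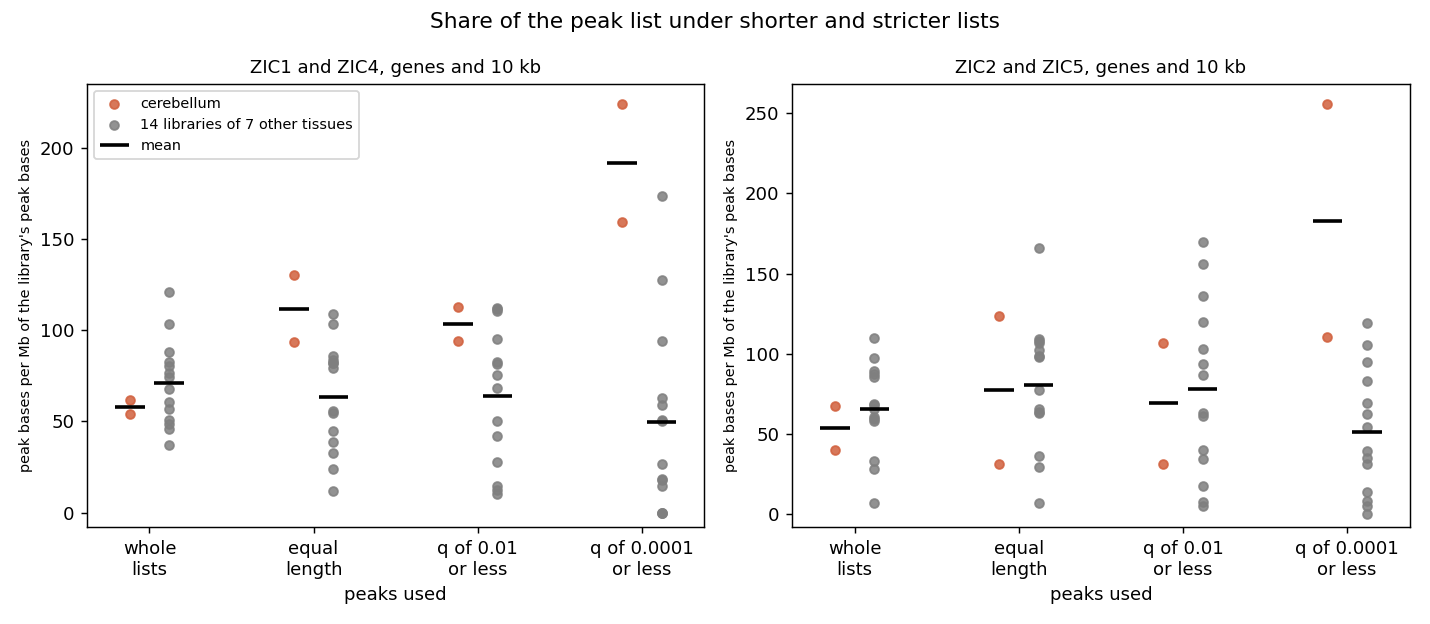
Peak bases per Mb of all peak bases kept, for the whole lists, lists of equal length and 2 stricter limits on the q-value, with a point for each library and black lines for the means of the 2 cerebellum and the 14 other libraries. At ZIC1 and ZIC4 the mean of cerebellum moved from below the others (58.0 against 70.9) to above them (111.9 against 63.4 in lists of equal length), and at ZIC2 and ZIC5 only at the strictest limit.

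Merged over libraries, the peaks within 50 kb of ZIC1 and ZIC4 made 29 regions, of which 17 were open in both pigs of at least 1 tissue. Adipose had the most with 14, cerebellum had 12 and spleen the fewest with 3. No region was open in cerebellum only, 3 were open in all 8 tissues, and 5 of the 17 were not open in cerebellum. These counts, and those for ZIC2 and ZIC5 below, were not set against list length or against all regions of the genome. The spleen lists, with 105278 and 104299 peaks, were among the shorter ones.

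The regions open in all tissues lay in the gene bodies or beyond ZIC1, not at the shared start. At chr13:87753924-87755495, over an exon of the long non-coding RNA LOC106505376, all 16 libraries had a peak, with folds of 3.22 and 4.15 in cerebellum, 2.45 in the spleen of P350 and 6.23 in the liver of P348. At chr13:87731725-87734154, over a coding exon of ZIC4 and an exon of LOC106505375, the folds were 2.82 and 2.61 in cerebellum and between 2.17 and 3.41 in all libraries. Cerebellum was inside the range of the other tissues at both. The region of the shared start, chr13:87739978-87742164, was open in both pigs of adipose, cerebellum, hypothalamus and lung.

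Within 50 kb of ZIC2 and ZIC5 there were 23 regions, of which 16 were open in both pigs of a tissue. Cerebellum and cerebral cortex had 10 each, hypothalamus 5, and skeletal muscle 2. None was open in cerebellum only and 1 was open in all 8 tissues. That 1 region, chr11:68838243-68841518, holds the start of ZIC2, and the region of the ZIC5 start, chr11:68826741-68830965, was open in both pigs of every tissue but adipose.

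**Figure D5:**
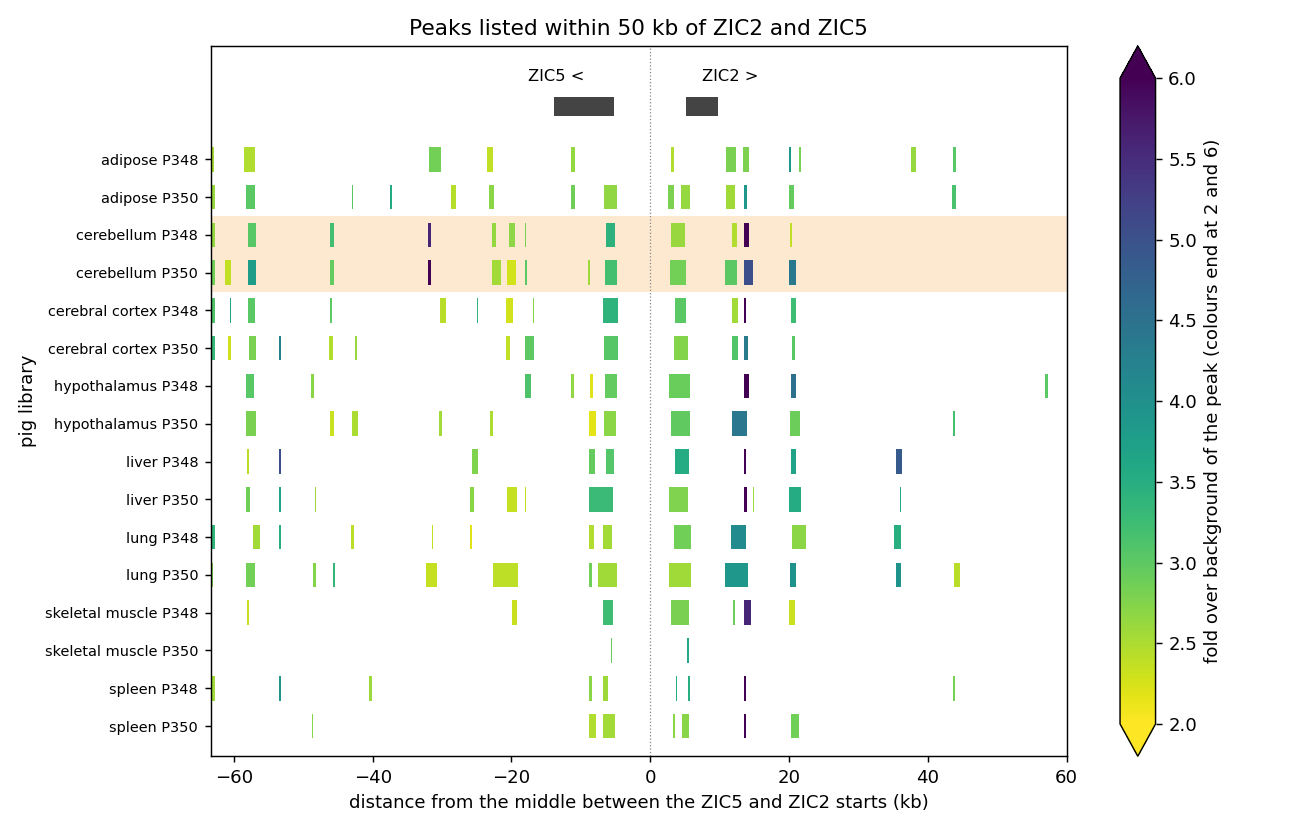
Peaks listed in each of the 16 pig libraries (rows) within 50 kb of ZIC2 and ZIC5, by distance in kb from the middle between their starts, with the fold over background as colour and the cerebellum rows shaded. A narrow peak beyond ZIC2 had a fold of 12.3 in the spleen of P348, a distal peak beyond ZIC5 was strong in cerebellum (5.59 and 6.26), and the skeletal muscle of P350 had only 2 short peaks.

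A distal region beyond ZIC5 had the largest gap in fold between the lower cerebellum library and the highest of the others at either pair, and it was chosen after its values were seen. It lies in intergenic DNA at chr11:68803266-68806228, 24244 bases from the ZIC5 start. Its peak had a fold of 5.59 in the cerebellum of P348 (421 bases) and of 6.26 in that of P350 (397 bases), and both peaks began at the same base. These folds were above 97.8% and 97.5% of the peaks of their lists. Over the stretch shared by both cerebellum peaks, 2 of the 14 other libraries had a peak, with folds of 2.85 in adipose of P348 and 2.36 in lung of P350, and 12 had none. Peaks of cerebral cortex of P348 (2.43), hypothalamus of P350 (2.55) and lung of P348 (2.39) lay elsewhere in the merged region, which therefore counted as open in lung.

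Like the shared start of ZIC1 and ZIC4, this region was listed at a q-value of 0.0001 or less in both cerebellum libraries and in 0 of the 14 others. That held for 0.583% of 533944 merged regions in the genome, for 1 of the 29 regions at the first pair and for 1 of the 23 at the second. The 300 bases at the middle of the stretch shared by both cerebellum peaks are shown because cerebellum stood furthest from the other tissues there (chr11:68803700-68803999, plus strand), with capitals for a match to the E-box CAGATG, the kind of site that NEUROD and ATOH factors bind, here on the minus strand.
distal cerebellum region beyond ZIC5: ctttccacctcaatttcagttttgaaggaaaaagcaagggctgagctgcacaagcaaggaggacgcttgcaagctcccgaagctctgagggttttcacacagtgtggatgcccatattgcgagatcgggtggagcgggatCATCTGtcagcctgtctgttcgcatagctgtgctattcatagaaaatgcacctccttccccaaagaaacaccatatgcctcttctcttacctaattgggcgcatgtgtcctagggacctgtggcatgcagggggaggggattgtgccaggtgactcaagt
The window held 1 such match, as did 24.7% of 533756 windows of that length at the middle of the merged regions. It held neither the other common E-box, CAGCTG, found in 20.6% of those windows, nor the ZIC core and the GLI site named above, found in 11.9% and 0.255%. With 7 CpG dinucleotides it had more than 73.2% of them.

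The peak of the highest fold at either pair was not a cerebellum peak. It lay in intergenic DNA beyond ZIC2 (chr11:68849179-68849397) and had a fold of 12.3 in the spleen of P348, and this one too was chosen after its values were seen. All libraries except the skeletal muscle of P350 had a peak over its 219 bases. The fold was 8.30 and 5.04 in cerebellum (P348 and P350), 10.5 and 7.02 in liver, and 9.73 in the spleen of P350. It was lowest in adipose, at 2.78 and 3.88. The listed peak had exactly the same ends in 4 libraries, those of spleen and the P348 libraries of cerebral cortex and liver. Only 0.146% to 0.246% of the peaks of these lists shared both ends with at least 3 other libraries. Both cerebellum libraries, liver and cerebral cortex of P350, and some others had a peak that began at the same base but ended further on. How well reads can be placed in this sequence was not tested. It is shown because its ends recur, with capitals for CpG dinucleotides, of which it holds 20.
peak of the highest fold beyond ZIC2: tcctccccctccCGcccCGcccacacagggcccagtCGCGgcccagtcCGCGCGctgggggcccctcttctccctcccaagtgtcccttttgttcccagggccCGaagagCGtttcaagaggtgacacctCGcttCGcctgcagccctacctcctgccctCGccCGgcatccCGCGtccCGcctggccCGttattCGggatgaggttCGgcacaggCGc

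Differences between the pigs, and between the forebrain and other organs at ZIC2 and ZIC5, were not what the genes were chosen by, and they were tested. The share at each locus was compared between the pigs over the 8 tissues. The two-sided permutation test flips the signs of the differences in every combination. Each pig gave a single library per tissue, so a difference between the animals cannot be told apart from one between their libraries. The replicates are tissues of the same pigs, so the p-values do not extend to other pigs. At ZIC1 and ZIC4, P350 minus P348 was -5.33 ± 21.997 bases per Mb (SD, n = 8 tissues), higher in P350 in 4 of 8 tissues, with p = 0.523 in this exact permutation test. Without cerebellum, whose share at ZIC1 the choice had used, it was -7.23 with an exact p = 0.453. At ZIC2 and ZIC5 it was 12.6 ± 34.6 (SD, n = 8 tissues), higher in P350 in 6 of 8 tissues, with an exact p = 0.297 (0.445 after Benjamini-Hochberg adjustment over the 3 tests). Neither difference was larger than the spread over tissues. Without skeletal muscle, an alternative added after the data were seen, the latter was 21.9 with an exact p = 0.0469, unadjusted.

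The other test asked whether ZIC2 and ZIC5, genes of the forebrain as well as the cerebellum, had more open chromatin in cerebral cortex and hypothalamus than outside the brain. Their share there was 83.0, against 58.7 ± 20.3 in the 5 tissues outside the brain (SD, n = 5 tissues). The difference of 24.3 had p = 0.238 in the exact two-sided permutation test over the 21 choices of 2 of 7 tissues (0.445 adjusted), and 0.0476 was the smallest p this design allowed. The 2 pigs did not give like values, with a difference of 38.5 in P348 and 10.1 in P350, and it was 17.9 without skeletal muscle. For ZIC1 and ZIC4 the same shares were 72.9 and 70.1, given without a test because these tissues had entered the choice of the gene.

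Once the lists were shortened, the GLI and GLIS relatives had a lower median ratio of cerebellum to the other tissues than the 4 ZIC genes. GLI1, GLI2 and GLI3 are the transcription factors of hedgehog signalling, and GLIS1, GLIS2 and GLIS3 share their kind of zinc fingers. In the whole lists the ratio by share had a median of 0.855 over these 6 genes, near the 0.828 of the ZIC pairs and above the 0.455 of all genes. It was above 1 for GLIS1 (1.09) and lowest for GLIS2 (0.398). In the whole lists none of the 6 had both cerebellum libraries above or below all others by share, which held for 4.92% and 33.3% of all genes. In lists of equal length both lay below all others for 1 of the 6, GLI3, against 21.2% of all genes. In lists of equal length the median was 0.405 for these 6 genes, 1.34 for the 4 ZIC genes and 0.547 for all genes. The 1.34 lay between the pairs, with ZIC1 at 1.75 and ZIC4 at 2.04 but ZIC2 at 0.932 and ZIC5 at 0.901. At 0.0001 the medians were 0.371, 4.30 and 0.644.

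Genes of cerebellar granule neurons gave a second point of reference. The list held CBLN1, GABRA6, NEUROD1, PAX6, MEIS1, BARHL1, EN2, ETV1, RBFOX3 and TIAM1. In raw bases both cerebellum libraries lay above all 14 others for 2 of the 10 (10.3% of all genes), GABRA6 with a ratio of 6.88 and NEUROD1, a transcription factor of differentiating granule neurons, with 3.32. By share of the whole lists that held for 0 of 10 (4.92% of all genes), and the median ratio was 0.916. In lists of equal length it held for 3 of 10 (4.39% of all genes), CBLN1, GABRA6 and NEUROD1, and the median was 1.30. RBFOX3, a splicing factor of mature neurons, had a ratio of 0.174 by share and ranked last of 8 in cerebellum.

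The genes whose share ran most like that of each pair over the 16 libraries differed between the pairs. For ZIC1 and ZIC4 they included CEBPD (Pearson r = 0.80 on the log2 scale of share plus 1, Spearman rho = 0.84), LOC733635, SLC35D3 and TOR2A, out of 18660 genes compared. For ZIC2 and ZIC5 they were SLITRK1 (r = 0.91, rho = 0.68), POU3F2 (r = 0.91, rho = 0.78), LOC100517356, JAKMIP1 and TMEM114, out of 18658. These values are descriptions over 16 libraries that share 2 animals and the effects of list length. For 4 of the latter 5 genes skeletal muscle was the lowest tissue, as it was for the pair. The shares of the 2 pairs were not alike over the 16 libraries, with r = -0.14, and r = 0.33 over 15 libraries without the skeletal muscle of P350. The r and rho of the single genes above all include that library, and are not given without it.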

How the data were processed

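The 16 pig peak lists, 1 per library, were used, and the 15 cattle lists were not used here. The members and gene lists were chosen with earlier results of these data known. By the study's methods, the authors called broad peaks with MACS2 at a q-value limit of 0.05. Trim Galore 0.4.5, BWA 0.7.17, SAMtools 1.10 and Picard 2.18.17 are stated for ChIP-seq reads, and a shift of ATAC-seq read ends is not given in the sources used here. The deposited fold is a ratio to local background averaged over a peak. The −log10 of the p-value and of the q-value, as the authors' files give them, are averages over a peak too, so some peaks lie above the limit. The deposited score is a rounding of the latter and was not used further. The depth of the libraries was not used here.

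Gene starts came from NCBI annotation release 106 of Sscrofa11.1, the build of the lists, and the study used another annotation. Samples were grouped by the tissue in their labels and paired by animal name, since the same animals gave all tissues. Peak bases were summed over genes with 10 kb either side (alternatives 2, 50 and 200 kb). Ratios are the cerebellum mean over the mean of the 7 other tissue means. A region was open in a tissue with a peak in both pigs. Genes to name were the members, their GLI and GLIS relatives, 10 granule neuron genes and the 5 most alike genes per pair (a peak in at least 8 libraries, pseudocount 1), of which some are not reported here. Regions to name were those at the starts, in cerebellum only or in all tissues. Exact permutation tests had a threshold of 0.05 and were checked on small made-up sets of values with a known p. The calls of genes above or below all other libraries were checked on simulated data (python 3.11.15, numpy 2.4.6, pandas 2.3.3).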

Additional observations from a re-analysis of the deposited data

Results flagged for a closer look

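The share of peak bases at ZIC2 and ZIC5 in the skeletal muscle of P350 was 7.03 bases per Mb, flagged because it lay far below the other tissues of that pig. The next lowest tissue of P350 was spleen at 60.8, and the gap was 0.597 of the whole range, above Dixon's 95% critical value for 8 values. Chance gives about 1 such flag in 20 groups, and 4 sets of 8 tissues were looked at. The skeletal muscle of P348 had 59.3. The P350 list was the shortest, yet it held 8 peaks at ZIC1 and ZIC4 as did that of P348. What set this value apart was not tested.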

How the results depend on the processing

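The ratios of cerebellum to the other tissues changed with the peaks kept. At ZIC1 and ZIC4 the ratio by share turned from 0.818 to 1.62 with a q-value of 0.01 or less, 3.86 with 0.0001 or less and 1.77 in lists of equal length. The raw ratio was 1.55 with a q-value of 0.05 or less, 2.24 with 0.01, 2.51 with 0.0001, 1.84 in lists of equal length, 1.60 with 50 kb and 1.17 as a number of peaks. At ZIC2 and ZIC5 the ratio by share turned to 3.55 and the raw ratio was 2.55, both with 0.0001. Single genes turned above 1 by share as well: ZIC1 at 1.66 and ZIC4 at 1.97 (0.01), ZIC1 at 3.92, ZIC4 at 5.49, ZIC2 at 3.23 and ZIC5 at 4.67 (0.0001), ZIC1 at 1.75 and ZIC4 at 2.04 (equal length), and ZIC4 at 1.09 (2 kb). The cause was not tested. Fewer peaks enter these lists by construction.

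The difference between the pigs at ZIC1 and ZIC4 changed sign, to 3.48 (0.01) and 4.63 (equal length), and stayed short of the threshold. That at ZIC2 and ZIC5 passed it without skeletal muscle, at 21.9, an alternative added after the data were seen. Without the pairing by animal (no replicate block) the exact p-values of the differences of -5.33 and 12.6 were 0.648 and 0.365, and with tissues exchanged within each animal (replicate block) the brain difference of 24.3 had an exact p of 0.188, so the block changed no call. Leaving out a pig moved the ratio at ZIC1 and ZIC4 between 1.28 and 1.499 (raw) and between 0.725 and 0.921 (share), at ZIC2 and ZIC5 between 1.20 and 1.44 and between 0.662 and 0.949, and the brain difference between 10.1 and 38.5. The brain difference was also 50.0 (0.01), 36.4 (50 kb), 102.4 (200 kb) and 11.7 (2 kb), and the difference between the pigs at ZIC2 and ZIC5 was 32.9 (equal length, exact p = 0.0781), 27.0 (0.0001) and 6.26 (2 kb), none of them past the threshold. Neither passed it by the number of peaks.

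Over all genes, the number with both cerebellum libraries above all others in raw bases was 2055, and 1330 (0.01), 289 (0.0001), 979 (equal length) and 3978 (200 kb) under the alternatives. The number below in raw bases was 988, and 3235 (equal length), 363 (200 kb) and 422 (number of peaks). The number above by share was 980, and 479 (0.0001), 1549 (50 kb) and 1993 (200 kb). The number below by share was 6630, and 888 (0.0001), 4181 (equal length) and 10290 (200 kb). Depth was not used, and its part in these values was not tested.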
